A study of Mus musculus with 6 samples.

Results

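The nuclear-encoded subunits of the mitochondrial respiratory chain were examined in irradiated mouse intestine. A list of 41 subunit genes of complexes I to IV was taken by gene name, with earlier results of these data known. Each gene was read from the probe with the highest mean signal among the probes whose current or older symbol matched. A named probe was found for 39 of the 41 genes, among 19057 named genes in all: 25 subunits of complex I, 4 of complex II, 5 of complex III and 5 of complex IV. Uqcrb and Cox7c were not analysed here.

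The 6 arrays came from the intestines of male C57 mice (C57BL/6J in the study's methods), 4 weeks old by the labels, all given 7 Gy to the whole body. In 3 mice phosphate-buffered saline (PBS) followed, and in the other 3 free ubiquitin (free Ub), the small protein that cells attach to other proteins, here given unattached. The tissue was taken 3.5 days after irradiation, and Illumina MouseWG-6 v2 BeadChips measured its total RNA, 1 array per mouse. No unirradiated intestine was included, so every comparison is between the injections after the same radiation. The study's methods and legends give another age, another time of collection and another order of injection and radiation than the labels, and the labels are followed here.

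The respiratory chain moves electrons from NADH and succinate to oxygen in the inner mitochondrial membrane and pumps protons, which drive ATP synthase. Complex I takes electrons from NADH and complex II from succinate, coenzyme Q carries them to complex III, and cytochrome c carries them on to complex IV, where oxygen is reduced to water. Most subunits are encoded in the nucleus and a few in mitochondrial DNA, and the intestinal epithelium, which renews itself and transports nutrients, depends on this chain for much of its energy.

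Promoter sequence is shown because many genes of this pathway are known to carry sites for the ETS-family factor GABP and for NRF1, regulators of nuclear genes for mitochondrial proteins, and because members that do or do not move together can then be compared at their starts. RefSeq promoters (GRCm38.p6) were matched for 31 of the 41 genes. Only a fixed stretch upstream of each start was searched, on both strands. The ETS core CCGGAAG was found there in 3 of the 31 genes, Ndufb7, Ndufs3 and Sdhd. It was found in 6.91% of 32851 RefSeq promoters. The letters CGCATGC, the middle of the NRF1 site, were found in 3 of the 31, Ndufa6, Ndufa8 and Sdhb. They were found in 3.02% of all promoters. No member carried both strings in that stretch. Below are the stretches next to the start of Ndufb7, a complex I subunit of the intermembrane space (chr8:83566638-83566757, plus strand), and of Sdhd, a membrane anchor of complex II (chr9:50603850-50603900, minus strand, up to the neighbouring gene Timm8b), 5′ to 3′ with the ETS core in capitals. In Sdhd the core lies on the opposite strand and is read as its reverse complement.
Ndufb7: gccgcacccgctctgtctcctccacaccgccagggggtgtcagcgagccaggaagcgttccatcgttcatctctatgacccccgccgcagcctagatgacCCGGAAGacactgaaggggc
Sdhd: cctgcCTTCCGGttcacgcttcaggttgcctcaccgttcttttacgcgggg
The core begins 20 bases before the start of Ndufb7 and 46 before that of Sdhd. The stretch of Ndufs3 is not printed. A match is a string of letters and not a measured binding site.

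The deposited values are normalized signals read as log2, so a difference of 1 is a doubling, and the lowest value on each array, near 0, is called the floor. The arrays were alike as wholes, with a median of 2.55, an upper quartile of 5.32 and a highest value of 14.49 on each, 32.2% to 33.7% of probes at the floor and no pair of arrays correlating below 0.926. The subunits were among the brightest genes on them. The median of the members' mean signals was 11.58 against 3.56 over all named genes, and 1.83% of named genes were brighter than the members' median. Of the 39 members, 36 were above the floor on all 6 arrays, 35 had a mean above 6 and 27 a mean above 10. Signals of different probes are not set against each other as amounts of RNA, since probes differ in how strongly they bind.

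The tissue was checked by markers. Epithelial markers led by Lgals4, Krt8, Krt20 and Vil1 gave a log2 summed signal of 15.45 to 15.70 with PBS and 15.62 to 15.75 with free Ub. Of the 11 measured, 7 were higher in mean with free Ub and 4 lower. Not all were bright: Epcam was at 4.34 to 4.87, and Fabp2 was at or near the floor, at most 1.78. Smooth muscle markers were higher in mean with free Ub for 10 of 10 genes, at 12.83 to 14.04 with PBS and 13.52 to 13.60 with free Ub. Pancreatic enzyme genes, which intestine should lack, were bright on most arrays, at 15.28, 13.71 and 16.85 with PBS and 16.70, 15.45 and 11.84 with free Ub, and 8 of 8 were lower in mean with free Ub. In bulk tissue, fewer cells of a type and less RNA per cell cannot be told apart.

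**Figure D1:**
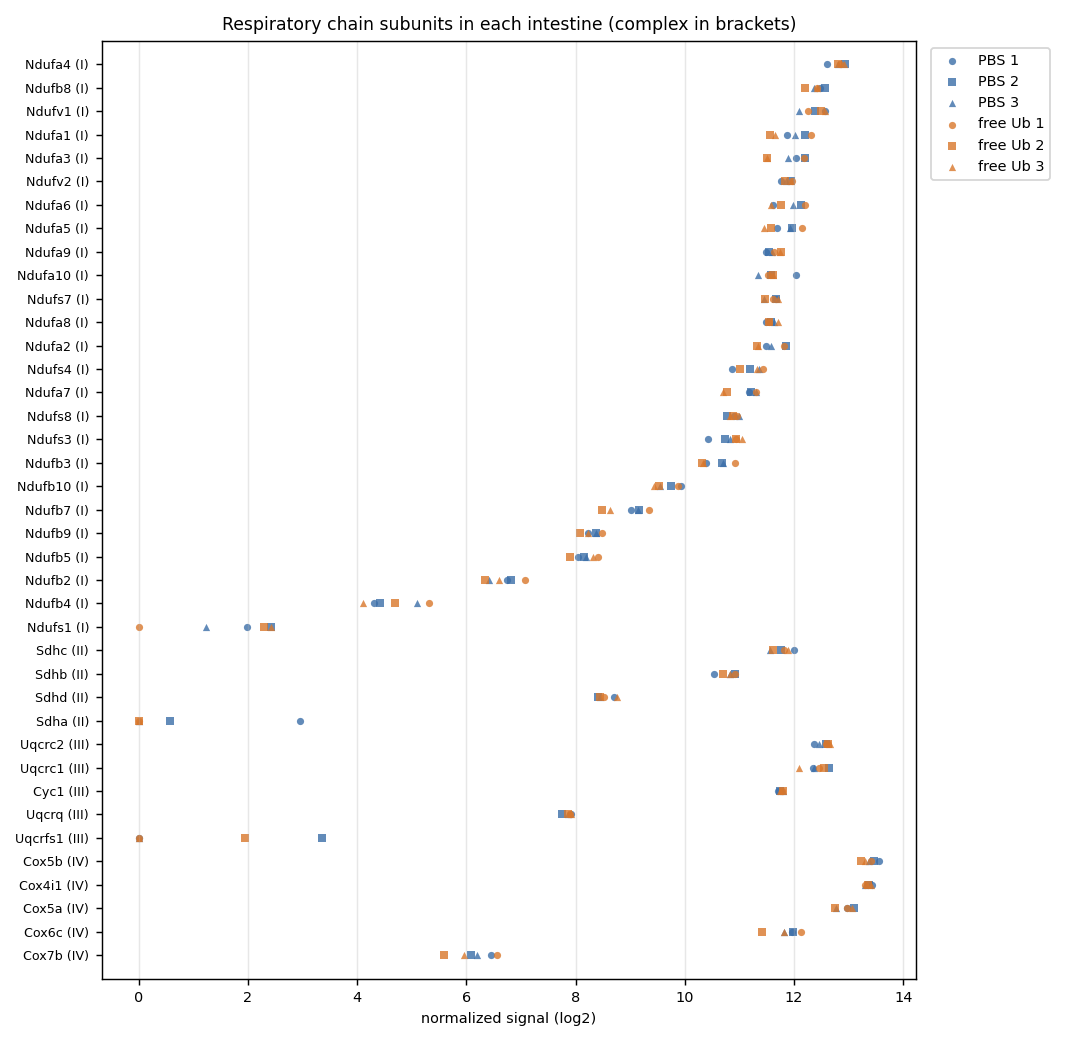
Normalized signal (log2, horizontal axis) of each of the 39 measured subunits (rows, complex in brackets), with 1 point per mouse, blue for PBS and orange for free Ub. Most subunits lie above 10, while Sdha, Uqcrfs1 and Ndufs1 lie near the floor.

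No respiratory chain subunit passed the test between free Ub and PBS after adjustment over all 45281 probes (limma, Benjamini-Hochberg). The adjusted p-values of the members ran from 0.861 to 0.992, beside 0.0577% of named genes called at 0.05. Without adjustment, p was under 0.05 for 1 of the 39 members, Ndufa9, which is 2.56% of the members beside 5.74% of all named genes and 6.07% of those with a mean above 6. It was higher with free Ub, as were 2.34% of all named genes by this rule, and 3.4% were lower. In mean signal 16 members (41.0%) were higher with free Ub and 23 lower, against 44.3% higher among all named genes. The median difference, free Ub minus PBS, was -0.02 over the members and -0.002 over all named genes. Each mouse is 1 array, so these p-values rest on the spread between 3 animals a group. The limma test draws the spread of each probe towards that of all 45281 probes.

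The 95% interval of a gene gives the range of differences compatible with its values. Each interval is for 1 gene alone and does not hold jointly over all genes. Among the 35 members with a mean above 6, the largest difference was 0.31 log2 in either direction, a fold of 1.24. All 35 of the 95% intervals lay within 1 log2 of no difference, from -0.98 at the lowest to 0.64 at the highest, and 18 lay within 0.5. The median interval reached 0.379 log2 to each side. A difference of 1 log2 in any of these 35 signals therefore lies outside its interval.

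**Figure D2:**
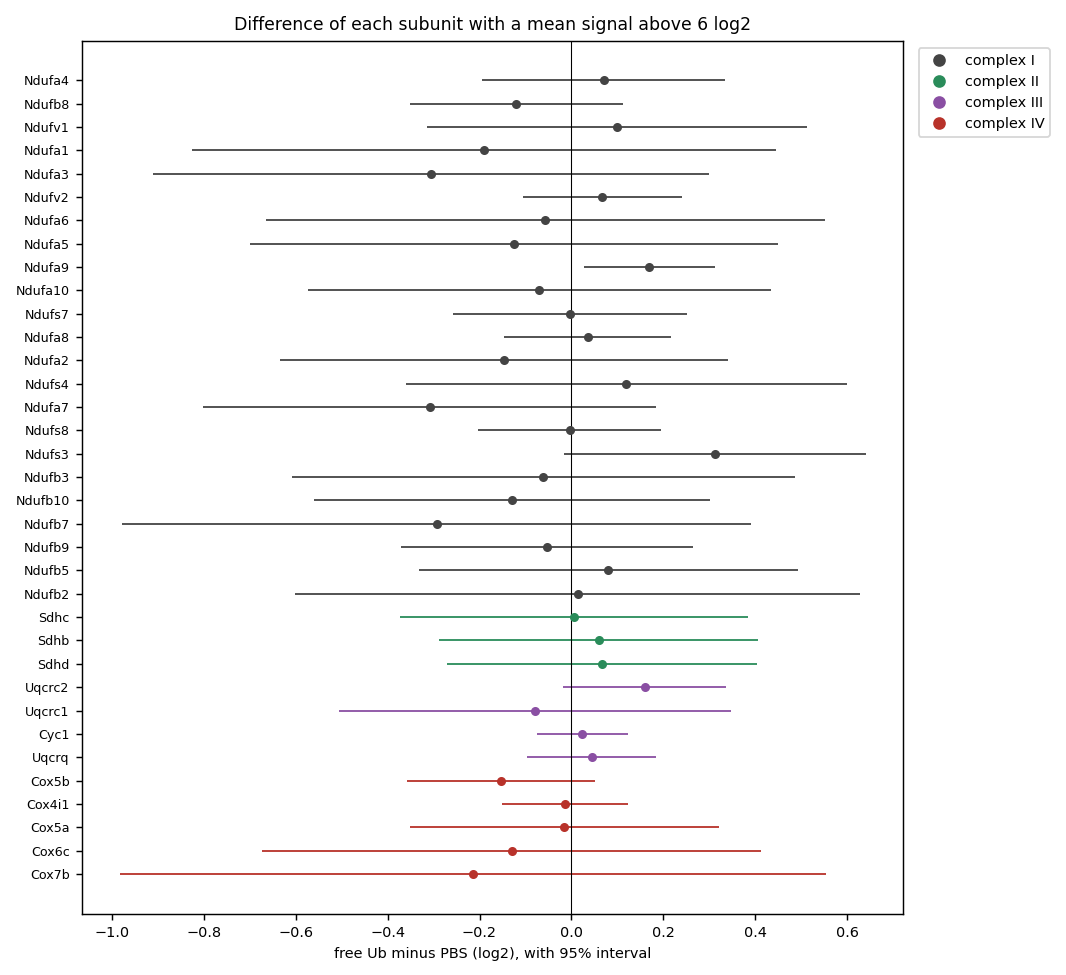
Difference between free Ub and PBS (log2, horizontal axis) with its 95% interval from limma, for the 35 subunits with a mean signal above 6, coloured by complex. All intervals except that of Ndufa9 cross 0, and none reaches 1 log2 to either side.

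Complex I, NADH dehydrogenase, has a core of subunits that carry the flavin and the iron-sulfur clusters, and accessory subunits around it. Of its 25 measured subunits 10 were higher with free Ub and 15 lower, with differences from -0.31 to 0.31 and a median of -0.05. That median ran from -0.157 without free Ub 1 to 0.0354 without free Ub 2, and it was also above 0, at 0.0108, without free Ub 3. The core and accessory subunits are described apart, a split made after the values were seen. The 6 core subunits stood at 3 higher and 3 lower, with Ndufs1, near the floor, among the lower, and a median of 0.03. The 19 accessory subunits stood at 7 higher and 12 lower with a median of -0.06.

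Among the core subunits, Ndufs3, which lies in the arm that passes electrons to coenzyme Q, was 10.42, 10.75 and 10.83 with PBS and 10.93, 10.95 and 11.05 with free Ub. Every free Ub mouse was above every PBS mouse. The difference of 0.31 had an interval of -0.02 to 0.64 (limma adjusted p = 0.872), and the widest gap within a group was that between PBS 1 and the other PBS mice. Without PBS 1 the difference was 0.19 and without PBS 3 it was 0.39, and in both of these fits the gene passed an unadjusted p under 0.05. The other core subunits with a mean above 6 overlapped between the groups. Ndufv1, the subunit that binds NADH, differed by 0.10, Ndufv2, its iron-sulfur partner, by 0.07, and Ndufs7 and Ndufs8, which hold clusters close to the coenzyme Q site, by under 0.01 in size. Ndufs1, the largest iron-sulfur subunit, is not comparable, since its probe was near the floor: 1.98, 2.43 and 1.23 with PBS, and the floor, 2.29 and 2.43 with free Ub.

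Among the accessory subunits, Ndufa9, which sits where the matrix arm of the complex meets its membrane arm, was 11.49, 11.55 and 11.59 with PBS and 11.63, 11.77 and 11.74 with free Ub. The groups did not overlap, and the lowest free Ub mouse stood just above the highest PBS mouse. The difference was 0.17 with an interval of 0.03 to 0.31, a fold of 1.12 (limma adjusted p = 0.861). Its unadjusted call held without PBS 3 or without free Ub 1 and was lost without any 1 of the other 4 mice. It was also lost with quantile normalization, with values raised to a floor of 4 or 6, with dim probes left out, with probes averaged per gene and with 1 probe per gene. Groups that did not overlap were counted for 3 members, all higher with free Ub, namely Ndufs3, Ndufa9 and the complex III subunit Uqcrc2, and for 0 members lower, beside 3.74% of named genes higher and 5.02% lower. With 3 mice a group such a separation has an exact permutation p of 0.1, the smallest this design allows.

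Among bright accessory subunits the lowest differences were those of Ndufa7, Ndufa3 and Ndufb7. Ndufa7, a small subunit of the matrix arm, was 11.18, 11.22 and 11.30 with PBS and 11.31, 10.77 and 10.70 with free Ub, a difference of -0.31 (limma adjusted p = 0.872). Ndufa3, a small membrane subunit, was 12.04, 12.19 and 11.89 with PBS and 12.19, 11.51 and 11.51 with free Ub, also -0.31. In both genes free Ub 1 stood with the PBS mice or above them, and free Ub 2 and 3 stood below all of them. Ndufb7, whose promoter is printed above, had the same order, at 9.01, 9.17 and 9.15 with PBS and 9.35, 8.48 and 8.62 with free Ub, a difference of -0.29. A second probe of Ndufa3 gave -0.37 with the same 2 free Ub mice lowest.

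Ndufa4 was the brightest probe under a complex I name, at 12.60, 12.94 and 12.81 with PBS and 12.83, 12.81 and 12.92 with free Ub. The groups overlapped and differed by 0.07. The protein carries a complex I name for historical reasons and is now assigned to complex IV. In the counts given here it stays among the accessory subunits of complex I. Ndufb8, a membrane subunit often used as a marker of assembled complex I, was 12.47, 12.56 and 12.37 with PBS and 12.42, 12.21 and 12.41 with free Ub, a difference of -0.12, and its dimmer second probe gave 0.20. Ndufs4, an accessory subunit whose loss causes a severe encephalopathy, was 10.87, 11.19 and 11.37 with PBS and 11.44, 11.02 and 11.33 with free Ub. The groups overlapped, and the 4 probes of this gene gave differences from -0.08 to 0.12, none past the threshold. Ndufb4 was the dimmest accessory subunit, with a mean of 4.66. It differed by 0.10. The other accessory subunits overlapped between the groups as well: Ndufa1, Ndufa2, Ndufa5, Ndufa6, Ndufa10, Ndufb3, Ndufb9 and Ndufb10 had differences from -0.19 to -0.05, and Ndufa8, Ndufb2 and Ndufb5 from 0.01 to 0.08. In Ndufa10 it was PBS 1 that stood apart, at 12.03 beside 11.35 to 11.61 in the other 5 mice.

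Complex II, succinate dehydrogenase, is shared with the tricarboxylic acid cycle. Of its 4 subunits 3 had a higher mean with free Ub and 1 a lower, and the differences of its anchor subunits Sdhc and Sdhd were near 0. Sdhc was 11.99, 11.77 and 11.55 with PBS and 11.81, 11.62 and 11.90 with free Ub, a difference of 0.00 with an interval of -0.37 to 0.38. Sdhd was 8.70, 8.40 and 8.44 with PBS and 8.53, 8.44 and 8.77 with free Ub, a difference of 0.07. In both the groups overlapped throughout. Sdhb, the iron-sulfur subunit, differed by 0.06. Sdha, the flavoprotein subunit, was listed at 2.95, 0.58 and the floor with PBS and at the floor in every free Ub mouse, so no fold is given for it.

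Complex III, the cytochrome bc complex, had the lowest median SD within groups of the 4 complexes, 0.0816. Cyc1, cytochrome c1, was 11.71, 11.74 and 11.81 with PBS and 11.78, 11.79 and 11.75 with free Ub. It differed by 0.02 with an interval of -0.07 to 0.12, and its SD within groups of 0.038 was the smallest of the 39 members. Uqcrc2, a core protein of the complex, was 12.36, 12.58 and 12.45 with PBS and 12.59, 12.63 and 12.66 with free Ub. Its groups were separated by less than 0.01, with a difference of 0.16 and an interval of -0.02 to 0.34 (limma adjusted p = 0.872). Its partner Uqcrc1 differed by -0.08 and the small subunit Uqcrq by 0.04. Uqcrfs1, the Rieske iron-sulfur protein, was above the floor only on PBS 2, at 3.35, and free Ub 2, at 1.95.

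The 5 measured subunits listed here under complex IV, cytochrome c oxidase, all had a lower mean with free Ub. Their differences ran from -0.21 to -0.01, with a median of -0.13. Ndufa4, now assigned to this complex but listed under complex I, was higher by 0.07. None of the 5 passed the test. Cox5b, which binds zinc on the matrix side, was 13.56, 13.47 and 13.37 with PBS and 13.42, 13.22 and 13.30 with free Ub, a difference of -0.15 with an interval of -0.36 to 0.05 (limma adjusted p = 0.872). Only PBS 3 and free Ub 1 overlapped in this gene, and its second bright probe gave -0.06. Cox4i1, the widely expressed form of a regulatory subunit, was 13.44, 13.38 and 13.31 with PBS and 13.30, 13.36 and 13.42 with free Ub, a difference of -0.01. Cox7b, a small subunit with the dimmest probe of the complex, was 6.46, 6.09 and 6.20 with PBS and 6.57, 5.58 and 5.95 with free Ub, a difference of -0.21 with an interval of -0.98 to 0.55. Cox5a and Cox6c differed by -0.02 and -0.13. Without free Ub 2 the median of the complex was 0.01, where Cox7b turned to 0.01, and Cox4i1 turned to 0.02 without PBS 1 and to 0.01 without free Ub 1. Cox5a was also higher in mean with free Ub when PBS 2 was left out, and Cox5a and Cox6c when free Ub 2 was left out. The shared sign of the 5 subunits was therefore lost without any 1 of PBS 1, PBS 2, free Ub 1 or free Ub 2.

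Among the accessory subunits of complex I, mice of the same group stood farther apart than the groups' means did. Each gene was set against its own mean over the 6 arrays, and the median was taken over each set of genes in each mouse. For the 19 accessory subunits these medians were -0.07, 0.12 and 0.05 in PBS 1 to 3 and 0.25, -0.20 and -0.22 in free Ub 1 to 3. The free Ub mice therefore held both the highest and the lowest levels of the set, with the PBS mice between them. In 15 of the 19 genes (78.9%) free Ub 1 was the highest free Ub mouse, against 30.3% of named genes with a mean above 6. The SD was larger with free Ub than with PBS in 16 of 19 (84.2%), against 45.7% of those genes, with median SDs of 0.279 and 0.168. These counts were made after the pattern was seen and are a description of 6 mice, whose genes are not independent.

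The core subunits did not show that order. Their medians, with Ndufs1 included, were 0.05, 0.02 and -0.09 with PBS and 0.04, 0.05 and 0.14 with free Ub. The SD was larger with free Ub in 1 of 6, and that gene was Ndufs1, whose probe was near the floor. The complex IV medians were 0.11, 0.08 and -0.04 with PBS and 0.04, -0.18 and -0.03 with free Ub, where free Ub 2 alone was low. Another 17 subunits of complexes I to IV outside the 41, measured from a list of 20, had medians of 0.05, 0.09 and -0.003 with PBS and 0.19, -0.19 and -0.08 with free Ub. Free Ub 1 was the highest free Ub mouse in 16 of these 17.

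Pancreatic marker signal was high in free Ub 1, at 16.70, and low in free Ub 3, at 11.84, but it was also the highest of all in PBS 3, at 16.85, where the accessory median was 0.05, and it was 15.45 in free Ub 2, where that median was -0.20. The summed signal of 12 striated muscle markers had the same order as the accessory subunits, at 11.45, 11.73 and 11.68 with PBS and 11.87, 11.17 and 10.95 with free Ub. The sum of 7 brown fat markers had this order too, at 11.38, 11.68 and 11.65 with PBS and 11.87, 11.20 and 10.94 with free Ub. Both sums were almost wholly Cox7a1, itself a complex IV isoform. Of the other striated muscle markers, Myh4, Cox6a2, Atp2a1 and Tnni2 were highest in free Ub 1, at 3.11, 3.64, 2.82 and 4.43. Acta1 and Myl1 were lowest there, at 5.27 and 4.68, and Tnnt3 did not leave the floor in any mouse. The part of pancreatic, muscle or other cells in the spread was not tested.

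**Figure D3:**
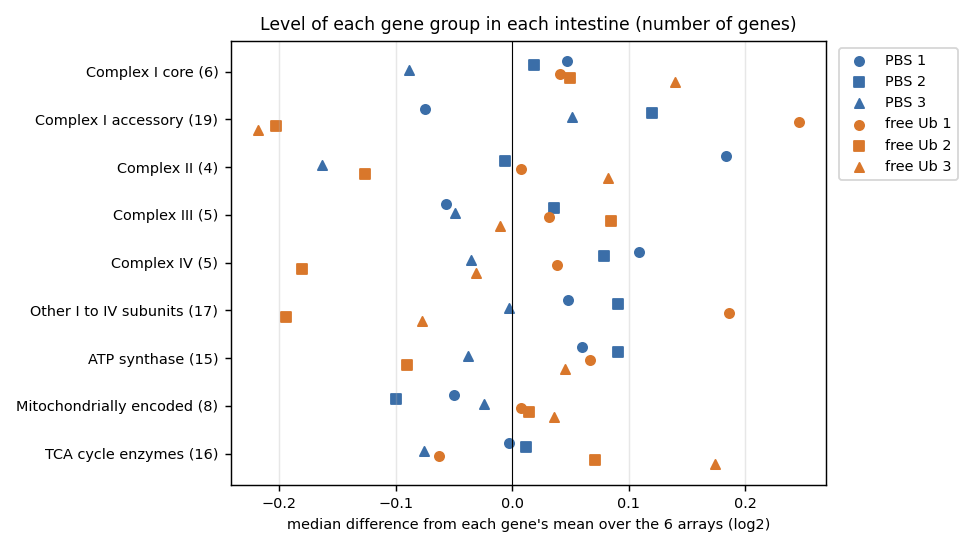
Median difference of each gene set from the genes' own means over the 6 arrays (log2, horizontal axis), with 1 point per mouse and the number of genes in brackets. Free Ub 1 is the highest and free Ub 2 and 3 are the lowest for the 19 accessory subunits of complex I, while the 6 core subunits and the 8 mitochondrially encoded subunits lie within 0.15 of 0.

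Leaving out 1 mouse changed what was called. Without free Ub 1, 6 of the 39 members (15.4%) passed an unadjusted p under 0.05, beside 7.22% of all named genes and 8.73% of those with a mean above 6 in the same fit. Lower with free Ub were Ndufa7 by -0.50 (limma adjusted p = 0.208), Ndufb7 by -0.56, Ndufa3 by -0.53, Ndufa1 by -0.42 and Ndufa5 by -0.34, and Ndufa9 was higher by 0.21. By this rule 4.24% of all named genes were lower and 2.98% higher. None of the 6 passed after adjustment. Ndufa1 is a small membrane subunit encoded on the X chromosome and Ndufa5 a subunit of the matrix arm. The 5 that were lower were all accessory subunits, where free Ub 1 was the highest free Ub mouse in 15 of 19 genes. Leaving out that mouse lowers the free Ub mean of such genes, so these calls restate that pattern and add no separate result. Leaving out any other single mouse gave 0 to 2 members. With PBS 3 and free Ub 1, the mice with the most pancreatic signal, left out together, 6 members passed beside 8.89% of all named genes, and 5 of them were lower with free Ub, namely Ndufa3, Ndufa7, Ndufb7, Ndufb10 and Cox5b.

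Spread is given beside brightness because dim probes vary more. Among 902 named genes with a mean of 10 to 12 the median SD within groups was 0.162, with quartiles of 0.12 and 0.211. The 19 members in that range had a median of 0.234, and 12 of them were above the median of all genes there. Among 236 genes with a mean above 12 the median was 0.160, and the 8 members there had a median of 0.118, with 3 above it. In dimmer ranges the medians were 0.201 for 5 members beside 0.179 for all genes with a mean of 8 to 10, and 0.301 for 3 members beside 0.224 for those with a mean of 6 to 8. Members with a mean above 6 ran from an SD of 0.038 in Cyc1 to 0.377 in Cox7b, whose mean was 6.14.

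**Figure D4:**
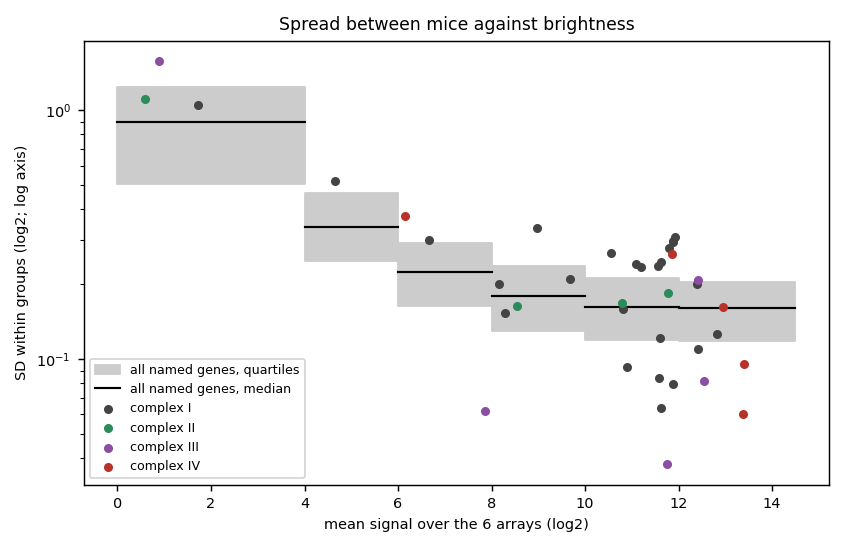
SD within groups (log2 signal, on a log axis) against mean signal over the 6 arrays (log2) for each of the 39 subunits, coloured by complex. Grey boxes span the quartiles of all named genes in each range of brightness and black lines their median. Between 10 and 12, 12 of 19 subunits lie above the median line, and Cyc1, at 0.038, lies farthest below it.

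Further genes of the pathway were read from lists chosen by name, and up to 4 genes with the smallest p of each list are given. The genes of each list past an unadjusted p under 0.05 stand beside the 5.74% of all named genes that were past it. Subunits of complexes I to IV outside the 41 were higher in 4 and lower in 13 of 17, with a median of -0.12, and 1 passed an unadjusted p. That gene was Cox7a2l, at 10.35, 10.51 and 10.67 with PBS and 10.88, 10.77 and 10.97 with free Ub. All free Ub mice were above all PBS mice, a difference of 0.36 (limma adjusted p = 0.802). The complex I subunit Ndufv3, part of the NADH-binding module, was 11.70, 11.68 and 11.51 with PBS and 11.64, 11.18 and 11.17 with free Ub. Ndufs6, a zinc-binding subunit of the matrix arm, was 12.39, 12.51 and 12.28 with PBS and 12.40, 11.98 and 12.08 with free Ub. In both, free Ub 1 stood among the PBS mice and free Ub 2 and 3 below them, with differences of -0.30 and -0.24 (adjusted p = 0.872 for each). Ndufc2, a membrane subunit, differed by 0.10.

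Tissue isoforms of complex IV were mostly dim, and Cox7b2 was at the floor on every array. Cox6a2, the muscle form of its subunit, was listed at 1.996, the floor and 2.37 with PBS and 3.64, 1.87 and 2.46 with free Ub, and Cox4i2, the lung form, at 3.91, 2.83 and 3.72 with PBS and 2.89, 3.22 and 3.37 with free Ub. Both overlapped between the groups at levels too near the floor for a fold. The exception was Cox7a1, the heart and muscle form, at 11.32, 11.61 and 11.58 with PBS and 11.80, 11.08 and 10.81 with free Ub. It followed the order of the accessory subunits, with free Ub 1 highest and free Ub 2 and 3 lowest. Cox6b2, known from testis, was 5.56, 6.22 and 6.13 with PBS and 5.09, 5.79 and 5.41 with free Ub, and the groups overlapped.

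ATP synthase subunits, which use the proton gradient, were higher in 7 and lower in 8 of 15, with a median of -0.08, and 0 passed an unadjusted p. Atpif1, the inhibitor that holds back ATP hydrolysis, was 13.36, 13.32 and 13.14 with PBS and 13.15, 12.91 and 13.04 with free Ub. Only PBS 3 and free Ub 1 overlapped, and the difference of -0.24 had an interval of -0.49 to 0.01. Atp5pb, of the peripheral stalk, was 10.74, 11.11 and 11.54 with PBS and 11.52, 11.64 and 11.55 with free Ub, where PBS 1 and 2 were low. Atp5j2, a small membrane subunit, differed by -0.22 and Atp5o, which joins the stalk to the catalytic head, by 0.12 (adjusted p = 0.872 for each of these 4).

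The 8 measured subunits encoded in mitochondrial DNA were higher in 5 and lower in 3, with a median of 0.03 and 0 past an unadjusted p. CYTB, the cytochrome b of complex III, was 14.27, 14.27 and 14.13 with PBS and 14.08, 14.25 and 14.00 with free Ub, a difference of -0.12. COX2, which takes electrons from cytochrome c into complex IV, was 11.98, 12.05 and 12.03 with PBS and 12.07, 11.98 and 12.04 with free Ub. Both overlapped between the groups, as did ND4, a proton-pumping subunit of complex I, with a difference of 0.04. ATP6, the proton channel of ATP synthase, differed by 0.20, and ND4L, a small membrane subunit of complex I, by 0.53 with an interval of -0.29 to 1.36. ND1 differed by -0.11, and ND5 and ND6 had SDs within groups above 0.5. The medians of the set were -0.05, -0.10 and -0.02 in the PBS mice and 0.01, 0.01 and 0.04 in the free Ub mice, without the wide order seen in the accessory subunits.

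Assembly factors, which build the complexes without staying in them, were higher in 17 and lower in 21 of 38, and 2 of the 38 passed an unadjusted p, a share near that of all named genes. Ndufaf7, a methyltransferase needed for complex I, was 5.85, 5.93 and 6.07 with PBS and 6.32, 6.44 and 6.24 with free Ub, a difference of 0.38 (limma adjusted p = 0.62). Acad9, an acyl-CoA dehydrogenase that also assembles complex I, was 6.01, 6.05 and 5.86 with PBS and 6.12, 6.48 and 6.39 with free Ub, a difference of 0.36 (adjusted p = 0.872). The groups did not overlap in either. Cox17, the copper chaperone of complex IV, was 11.52, 11.70 and 11.54 with PBS and 11.58, 11.28 and 11.10 with free Ub, again with free Ub 1 among the PBS mice. Timmdc1, another complex I factor, differed by -0.21.

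Regulators of mitochondrial biogenesis were higher in 10 and lower in 8 of 18. Ppargc1b, a coactivator of nuclear genes for mitochondrial proteins, was 8.90, 8.99 and 8.96 with PBS and 8.75, 8.71 and 8.80 with free Ub. The groups were separate, with a difference of -0.20 and an interval of -0.31 to -0.09 (limma adjusted p = 0.542). Its relative Ppargc1a was 6.67, 7.31 and 7.06 with PBS and 7.34, 7.47 and 7.38 with free Ub, also separate but the other way, by 0.39 (adjusted p = 0.872). Gabpb2, a partner subunit of GABP, was 2.999, 2.48 and 3.02 with PBS and 3.23, 3.99 and 3.74 with free Ub (adjusted p = 0.872), levels too low for a fold. Ppargc1b and Gabpb2 passed an unadjusted p and Ppargc1a did not. Yy1 was at the floor in PBS 2 and free Ub 1, and no difference is given for it.

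The enzymes of the tricarboxylic acid cycle and its entry were higher in 11 and lower in 4 of 16, with a median of 0.09. Pdhb, a subunit of pyruvate dehydrogenase, was 8.21, 8.45 and 8.58 with PBS and 8.78, 8.94 and 8.89 with free Ub. Every free Ub mouse was above the PBS mice, by 0.46 in mean (limma adjusted p = 0.687), and it alone of this list passed an unadjusted p. Dld, a subunit that pyruvate dehydrogenase shares with related complexes, differed by 0.29, Suclg2, of succinyl-CoA ligase, by 0.15 and Pdha1, the partner of Pdhb, by 0.13. Cytochrome c and the enzymes of coenzyme Q synthesis were higher in 6 and lower in 4 of 11, with 0 past an unadjusted p. Cycs, cytochrome c itself, was 12.07, 12.30 and 12.16 with PBS and 12.23, 12.23 and 12.35 with free Ub, with overlapping groups. Coq5 and Coq8b, which act in coenzyme Q synthesis, differed by -0.14 and -0.28, and Coq3 was at the floor in PBS 1 and 2. No gene of these lists passed after adjustment.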

How the data were processed

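The authors normalized the bead signals by cubic spline in GenomeStudio, of a version that is not given in the sources used here. The deposited values are read as log2. Neither the log base nor the handling of background and of the floor is stated in the sources used here. Equal medians and highest values show normalization between arrays, and nothing further was applied. Values no more than 0.01 above the lowest on the same array were taken as the floor. Of 45281 probes, 34885 had 1 gene symbol on the platform annotation, 18 several and 10378 none. Symbols can be old and were updated through Entrez IDs.

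Free Ub was compared with PBS for each probe by the moderated two-sided test of limma 3.58.1 under R 4.3.3, without covariates, and p-values were adjusted over all probes by the Benjamini-Hochberg method. Samples were grouped by their labelled treatment. The members and lists were chosen with earlier results of these data known. The split into core and accessory subunits, and the fit without both PBS 3 and free Ub 1, were chosen after the values were seen. By rule, values in every sample are given for members past an unadjusted p under 0.05, for the largest rise, largest fall, brightest and dimmest member of each complex, for the 2 members with the largest and the 2 with the smallest SD, for members whose bright probes differ in direction, and for up to 4 genes with the smallest p of each list. Further members were named after their values were seen, and some list genes are given by their difference only. Alternatives were quantile normalization, raised floors, a filter on dim probes, the mean of a gene's probes, 1 probe per gene, array weights, an intensity trend, Student's t-test, a block on the replicate number and leaving out each mouse. The script was tested on simulated data. The number of arrays, the brightness of a probe and the spread between mice limit the precision, and no bead counts or detection p-values were used.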

Additional observations from a re-analysis of the deposited data

How the results depend on the processing

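Under 19 alternatives no member passed an adjusted p under 0.05 in any fit. The count of members past an unadjusted p, 1 as reported, was 0 with quantile normalization, a floor of 4, dim probes left out, probes averaged per gene or 1 probe per gene, 2 with array weights, 6 with PBS 3 and free Ub 1 left out together, and 0 to 6 when each mouse was left out. Where 1 was called, it was not always Ndufa9: it was Ndufs3 with a floor of 6 or without PBS 1, Uqcrc2 without PBS 2 and Ndufb5 without free Ub 2. Over all probes the 24 adjusted calls became 0 with floors of 4 or 6, dim probes left out or an intensity trend, 11 with Student's t-test, 59 with array weights, 60 without those 2 mice and 75 to 112 when each mouse was left out.

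The members' median difference was -0.13 without those 2 mice, and that of complex IV -0.25, and -0.21 to 0.0105 when each mouse was left out. When the probes of a gene were averaged, the medians of complexes II and III were -0.19 and -0.079. These averages take in dim second probes. That of Sdhc had a mean of 2.11 and a difference of -0.88, and that of Uqcrq a mean of 2.46 and a difference of -0.91. Small differences changed sign: Cox4i1 to 0.028, Cyc1 to -0.0067, Ndufs4 to -0.041 and Ndufs1 to 0.11 with array weights, Ndufb8 to 0.0405 and Sdhc to -0.44 with averaged probes, and Ndufs1 to 0.15 and Sdhc to -0.12 without those 2 mice. When each mouse was left out, Cox4i1 ran from -0.047 to 0.0175, Cox7b from -0.48 to 0.0105, Ndufa4 from -0.0206 to 0.15, Ndufs1 from -0.74 to 0.48, Ndufs4 from -0.0159 to 0.24, Sdhc from -0.10 to 0.11, Sdhd from -0.0274 to 0.16 and Uqcrfs1 from -1.12 to 0.65. The cause of the changes with array weights or with mice left out was not tested.

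The replicate numbers share no stated animal or batch, and same-numbered arrays correlated at -0.01, -0.01 and -0.14 in their deviations over 11923 genes. A replicate block left 0 adjusted calls over all probes, as did Student's t-test in its paired form, and 1 member past an unadjusted p. No probe's detection was called, so values near the floor, as in Ndufs1 and Uqcrfs1, are listed values and their differences are no measure of change.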
